A study of Homo sapiens with 2 samples.

Results

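Iron uptake and heme synthesis were followed at 9 genes: TFRC, SLC11A2 and SLC25A37, which bring iron into the cell and its mitochondria, and ALAS1, ALAS2, UROS, UROD, CPOX and FECH, which encode enzymes of heme synthesis. They were chosen by gene name, and each of the 9 had 1 row among the 36814 rows of the deposited table. The assay was precision run-on sequencing (PRO-seq), which reads RNA from polymerases that are engaged on DNA and can be extended in permeabilised cells. The cells were K562, a single established human leukaemia line with erythroid features, either kept in 0.1% DMSO, a drug solvent, for 1 h or left untreated. Both kinds of cells went through the same run-on of 5 min at 30 °C, and each treatment had 1 library, so no value below has a replicate check and no p-value is given.

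Red cell precursors need large amounts of iron for heme. Iron bound to transferrin is taken up by the transferrin receptor TFRC, leaves the endosome through the divalent metal transporter SLC11A2 and enters mitochondria through mitoferrin-1, the product of SLC25A37. Heme is built from glycine and succinyl-CoA in a chain of enzymes that starts in mitochondria, runs through the cytosol and ends in mitochondria, where FECH inserts iron. The first and rate-limiting step has a pair of isozymes, ALAS1 in all tissues and ALAS2 in erythroid cells. When iron is scarce, iron regulatory proteins bind stem-loops, called iron-responsive elements, in the mRNAs of TFRC, ALAS2 and others, a control that acts after transcription.

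Each row counts reads in a window of 6000 bases around an annotated gene start on hg38, and bases that also lie in another window gave no reads: all 1154 windows without a base of their own held 0 reads. For 321 of these the covering windows all belong to genes on the other strand, and reads of a gene and of its antisense partner were therefore not separated. The library totals were 4154920 reads with DMSO and 2136291 untreated. Windows over ribosomal RNA repeats took 42.2% of the DMSO and 71.5% of the untreated reads, which makes CPM, the reads of a window as a part of its library's total, comparable within a library and not between the libraries. Outside ribosomal and mitochondrial windows there were 2249790 DMSO and 525322 untreated reads. The line's erythroid markers were read: GATA1 had 304 DMSO and 79 untreated reads, TAL1 380 and 117, and KLF1 807 and 234. The embryonic globin gene HBE1 has no base of its own and was at 0. In bulk samples such as these, fewer cells of a type and less RNA per cell cannot be told apart.

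Of the 9 windows 6 share no base with another, those of TFRC, SLC11A2, SLC25A37, ALAS1, ALAS2 and CPOX. The other 3 are cut short. UROS keeps 287 bases, because its start lies next to that of BCCIP on the opposite strand, and the counted bases lie 2713 to 2999 bases downstream of the UROS start. UROD keeps 375 bases, at -4304 to -3930 from its RefSeq start, inside the neighbouring gene HECTD3, so the UROD row holds no read of UROD itself. FECH keeps 2389 bases, 611 to 2999 bases downstream of its start, because a window of AC100847.1 covers the rest. For these 3 genes the bases at the start, where engaged polymerases are often densest, were not counted.

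**Figure D1:**
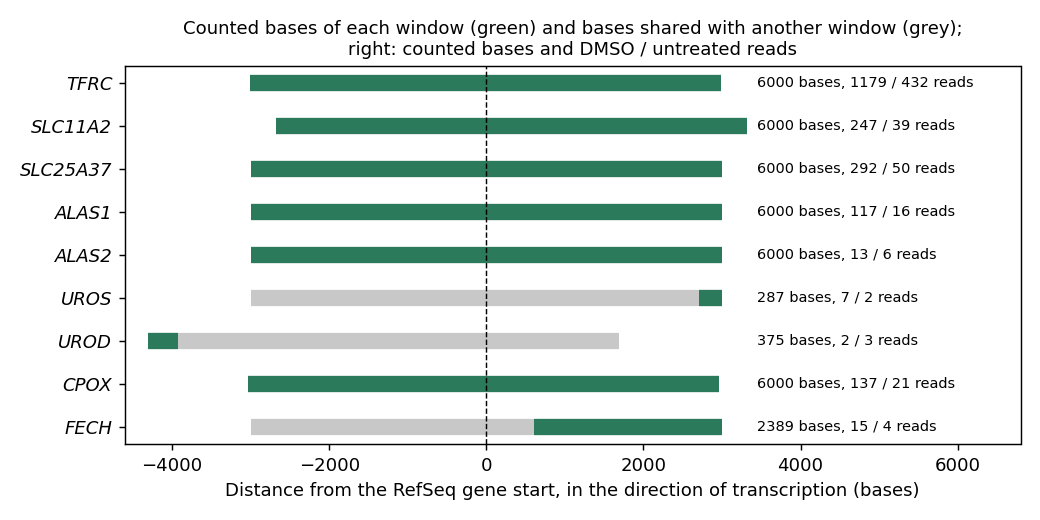
Windows of the 9 genes by distance from the RefSeq gene start (bases, in the direction of transcription; dashed line, start). Green marks counted bases and grey marks bases shared with another window; the numbers at the right give counted bases and DMSO / untreated reads. The start lies in counted bases for TFRC, SLC11A2, SLC25A37, ALAS1, ALAS2 and CPOX, and in shared bases for UROS, UROD and FECH.

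The stretches upstream of 4 starts show how the most read member, TFRC, both isozymes of the first step, ALAS1 and ALAS2, and CPOX, a later enzyme read at about the level of ALAS1, differ in the DNA that the windows are centred on. Each is the 250 bases before the RefSeq start, 5′ to 3′ on the gene's strand, from RefSeq on GRCh38.p14: TFRC at chr3:196082091-196082340 (minus strand), ALAS1 at chr3:52197833-52198082 (plus), ALAS2 at chrX:55030978-55031227 (minus) and CPOX at chr3:98593612-98593861 (minus). Capitals mark matches on either strand to 5 sets of letters: AGATAA, here called the GATA motif after the factors that bind it, CACCC, the KLF motif, GGGCGG, the SP motif, CCAAT, the CCAAT box, and TATAAA, the TATA box.
TFRC: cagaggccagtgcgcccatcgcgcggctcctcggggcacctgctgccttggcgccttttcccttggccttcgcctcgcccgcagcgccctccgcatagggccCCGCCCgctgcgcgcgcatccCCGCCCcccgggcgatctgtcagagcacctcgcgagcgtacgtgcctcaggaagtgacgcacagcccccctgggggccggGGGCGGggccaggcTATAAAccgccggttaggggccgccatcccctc
ALAS1: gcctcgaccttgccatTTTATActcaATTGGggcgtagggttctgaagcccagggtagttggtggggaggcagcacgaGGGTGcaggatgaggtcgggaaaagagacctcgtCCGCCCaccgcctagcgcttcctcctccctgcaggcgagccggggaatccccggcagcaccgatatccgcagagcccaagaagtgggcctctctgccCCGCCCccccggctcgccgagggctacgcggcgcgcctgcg
ALAS2: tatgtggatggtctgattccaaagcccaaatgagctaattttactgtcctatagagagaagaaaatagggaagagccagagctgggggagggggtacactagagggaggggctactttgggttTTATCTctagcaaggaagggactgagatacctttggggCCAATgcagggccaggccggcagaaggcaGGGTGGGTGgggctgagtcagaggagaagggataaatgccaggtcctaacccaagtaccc
CPOX: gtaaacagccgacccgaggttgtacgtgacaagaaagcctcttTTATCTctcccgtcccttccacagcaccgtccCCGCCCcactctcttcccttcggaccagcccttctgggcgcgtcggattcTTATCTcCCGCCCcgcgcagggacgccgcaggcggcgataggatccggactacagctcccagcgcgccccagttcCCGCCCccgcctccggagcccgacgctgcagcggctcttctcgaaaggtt

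The ALAS2 stretch held 1 GATA motif, 127 bases before the start, a CCAAT box 89 bases before it, and a pair of KLF motifs at 60 and 56 bases that overlap by a single base. The ALAS1 stretch held no GATA motif but SP motifs at 138 and 41 bases, a KLF motif at 172, a CCAAT box at 224 and a TATA box at 234. CPOX held GATA motifs at 207 and 125 bases and SP motifs at 175, 118 and 50. TFRC held SP motifs at 148, 127 and 47 bases and a TATA box at 33. Of all 35116 RefSeq stretches of this length, 9.17% held the GATA motif, 54.7% the KLF motif, 42.6% the SP motif, 32.0% a CCAAT box and 10.7% a TATA box on either strand. The E-box CACGTG, searched as well, is in 6.34% of all and in none of these 4. The share of G and C was 74.4% at TFRC, 67.2% at ALAS1, 65.6% at CPOX and 52.8% at ALAS2, against a median of 58% over all stretches. Such matches describe the letters and are no evidence of binding. Of the 9 genes 7 had an entry among the RefSeq stretches searched, with 10 starts in all, of which SLC11A2 has 4. Among them the UROD and FECH stretches held SP motifs only, at 66 bases for UROD and at 123 and 81 for FECH. UROS and SLC25A37 have a RefSeq gene start but no stretch among those searched.

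ALAS2 alone among the 10 starts had, in the 50 bases after the start, a match to the bulge and loop letters of an iron-responsive element, a C followed after 5 bases of any kind by CAGTGN. The search ran on the gene's strand only, and 586 of the 35116 stretches (1.67%) held such a match. It is shown because this element ties ALAS2 translation to iron. It lies at chrX:55030943-55030972 (minus strand, GRCh38.p14), bases 6 to 35 after the start, with the match in capitals.
ALAS2 element: tcattcgttCGTCCTCAGTGCagggcaaca

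TFRC was by far the most read of the 9. Its window (chromosome 3, 196079097 to 196085096, minus strand) held 1179 reads with DMSO and 432 untreated, or 284 CPM (interval 268 to 300.4) and 202 CPM (184 to 222). All intervals are exact at 95% and cover counting error only, since each treatment had 1 library. They take every read as independent. Reads carry no molecular identifiers, so repeated reads of the same molecule would make the intervals too narrow. As many reads or more were found in only 0.439% of the 22531 windows that share no base and lie outside ribosomal and mitochondrial windows in the DMSO library, and in 0.133% of them in the untreated library.

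The transporters that pass iron on from the endosome followed. SLC25A37 (chromosome 8, 23525956 to 23531955, plus strand) held 292 DMSO and 50 untreated reads, and 7.61% of the unshared windows had as many with DMSO and 10.5% untreated. SLC11A2 (chromosome 12, 51025567 to 51031566, minus strand) held 247 DMSO and 39 untreated reads, a level that 9.71% and 14.1% of the unshared windows reached. The window of SLC11A2 contains RefSeq starts at 51028886, 51028242 and 51026384, whose reads are summed here, while the start at 51009215 lies outside it.

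Enzymes of heme synthesis were read less. CPOX, which makes protoporphyrinogen in mitochondria (chromosome 3, 98590649 to 98596648, minus strand), held 137 DMSO and 21 untreated reads. ALAS1 (chromosome 3, 52195086 to 52201085, plus strand) held 117 DMSO and 16 untreated reads. As many were found in 17.3% of the unshared windows with DMSO and 23.4% untreated for CPOX, and in 19.4% with DMSO and 26.8% untreated for ALAS1.

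ALAS2, the erythroid isozyme, was read little. Its window (chromosome X, 55027978 to 55033977, minus strand), which is wholly counted and also overlaps PAGE2B, held 13 DMSO and 6 untreated reads, or 3.13 CPM (1.67 to 5.35) and 2.81 CPM (1.03 to 6.11). As many reads were found in 43.5% of the unshared windows with DMSO and in 36.9% untreated. For scale, the 7 windows of granulocyte and monocyte markers held 2 to 40 DMSO and 0 to 2 untreated reads each, and that of the adult globin gene HBB held 25 and 2. The ALAS1 window exceeded that of ALAS2 by 9.0 to 1 with DMSO (interval 5.06 to 17.4) and by 2.67 to 1 untreated (0.991 to 8.32). The intervals of the 2 ratios overlap, and in the untreated library that of the ratio includes equality.

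The cut windows held few reads. FECH (chromosome 18, 57583703 to 57589702, minus strand) held 15 DMSO and 4 untreated reads, UROS, which closes the porphyrin ring (chromosome 10, 125820259 to 125826258, minus strand), 7 and 2, and the UROD row (chromosome 1, 45007950 to 45013949, plus strand) 2 and 3. Levels were set side by side per kb of counted bases. UROS stood at 5.87 CPM per kb with DMSO (2.36 to 12.1) and at 3.26 untreated (0.395 to 11.8), an interval that holds the CPOX values of 5.50 and 1.64. FECH stood at 1.51 CPM per kb with DMSO (0.846 to 2.49) and at 0.784 untreated (0.214 to 2.01). A low read number at UROS therefore goes with a short counted stretch, and these values come from bases inside the genes, so they do not rank UROS or FECH against genes whose starts were counted.

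**Figure D2:**
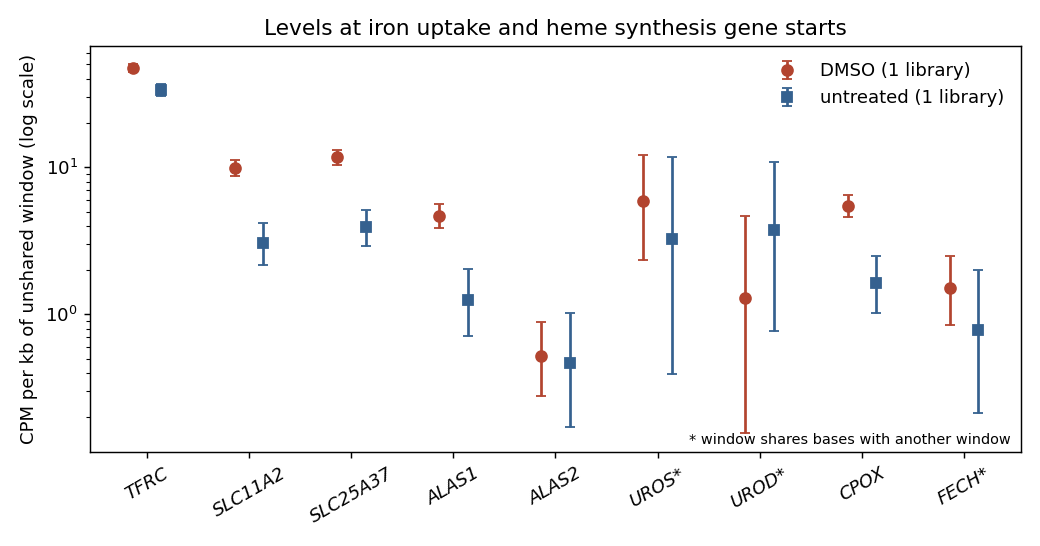
Level of each gene in CPM per kb of counted bases (log axis), DMSO (circles) left of untreated (squares), 1 library each; bars are exact 95% Poisson intervals. Among the 6 wholly counted windows TFRC lies highest in both libraries, at 47.3 with DMSO and 33.7 untreated, and ALAS2 lowest, at 0.521 and 0.468. The UROD point comes from bases inside HECTD3. UROS and FECH points come from bases inside the genes and are not ranked against the others. CPM do not compare the libraries with each other.

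The 6 wholly counted windows came in the same order in both libraries: TFRC, SLC25A37, SLC11A2, CPOX, ALAS1 and ALAS2. In CPM per kb this was 47.3, 11.7, 9.91, 5.50, 4.69 and 0.521 with DMSO, and 33.7, 3.90, 3.04, 1.64, 1.25 and 0.468 untreated. Not every step in the order was clear of counting error. SLC25A37 exceeded SLC11A2 by 1.18 to 1 with DMSO (0.995 to 1.41) and 1.28 to 1 untreated (0.827 to 2.00), and CPOX exceeded ALAS1 by 1.17 to 1 with DMSO (0.908 to 1.51) and 1.31 to 1 untreated (0.653 to 2.69). SLC11A2 lay above CPOX in both, by 1.8 to 1 with DMSO (1.46 to 2.24) and 1.86 to 1 untreated (1.07 to 3.32).

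TFRC took a smaller part of the genes' reads with DMSO. Of the reads in the 6 wholly counted windows, which need no scaling between libraries, TFRC held 59.4% of 1985 with DMSO (57.2 to 61.6) and 76.6% of 564 untreated (72.9 to 80.0). The ratio of TFRC to SLC25A37 was 4.04 with DMSO (3.55 to 4.61) and 8.64 untreated (6.44 to 11.8). That of TFRC to ALAS1 was 10.1 with DMSO (8.33 to 12.3) and 27.0 untreated (16.4 to 47.7). The intervals of the 2 libraries did not overlap for these shares and ratios, nor for TFRC to SLC11A2 (4.77 with DMSO, 4.16 to 5.50, and 11.1 untreated, 7.97 to 15.8) and TFRC to CPOX (8.61 with DMSO, 7.21 to 10.3, and 20.6 untreated, 13.3 to 33.6). All of these values use the same TFRC reads, so they are not separate findings. How often other windows or pairs of windows differ in this way was not counted. For the distance from the median window, given further on, TFRC is set beside all windows. The intervals cover counting error only, and 1 library of each kind does not separate DMSO from any other difference between the libraries.

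**Figure D3:**
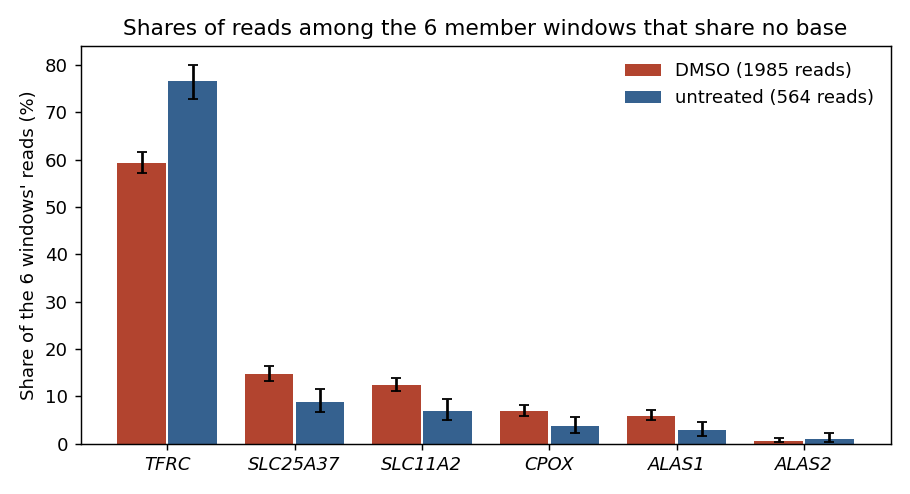
Share of the reads of the 6 wholly counted windows that each gene held, in percent, DMSO left of untreated; bars are exact 95% Clopper-Pearson intervals. TFRC held 59.4% with DMSO and 76.6% untreated, and SLC25A37, SLC11A2, CPOX and ALAS1 each held a larger share with DMSO.

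The comparison of DMSO with untreated cells, which a solvent control makes possible, is here one of 2 libraries. Library sizes were adjusted by edgeR's TMM method, and each log2 DMSO/untreated ratio is given as its distance from the median of 6591 windows. These are the windows past a floor, a mean of at least 5 CPM and a sum of at least 100 reads. The median window had 4.72 DMSO reads per untreated read. The floor was passed by 5 of the 9 genes, TFRC, SLC11A2, SLC25A37, ALAS1 and CPOX. ALAS2, UROS, UROD and FECH, with 5 to 19 reads in both libraries together, did not pass. Since most reads are DMSO reads, the floor itself favours windows that are high with DMSO, and the median of the 5, 0.42, describes them only. Over all windows past the floor the median is 0 by construction.

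TFRC stood below the median window and the other 4 above it, as 50% of all windows past the floor do. TFRC had a log2 ratio of -0.79 (-0.95 to -0.63), so that its DMSO reads were 0.579 of what the median window would give. ALAS1 stood at 0.62 (-0.13 to 1.49), CPOX at 0.46 (-0.20 to 1.21), SLC11A2 at 0.42 (-0.07 to 0.95) and SLC25A37 at 0.31 (-0.13 to 0.77), all with intervals that include the median window. With every window that held a read as the base of the median, SLC25A37 stood at -0.09 and TFRC at -1.18. None of the 5 was past 2-fold in either direction, where 7.04% of all windows past the floor were at least 2-fold higher and 7.97% at least 2-fold lower, 15% in all. Past 1.5-fold were ALAS1, higher, and TFRC, lower, where 18.6% of all windows were higher and 19.6% lower, 38.3% in all.

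The interval of TFRC lay wholly below the median window, as did those of 24.5% of all windows, and 0 of the 5 lay wholly above it, against 22.5%. Of all windows past the floor, 13.1% had a ratio at or below that of TFRC. Among the 200 windows nearest to it in mean CPM, which range from 161 to 367 CPM, 8.5% did. For ALAS1, the highest of the 5, 83.0% of all windows stood at or below its ratio, and 85% of the 200 nearest in mean CPM.

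**Figure D4:**
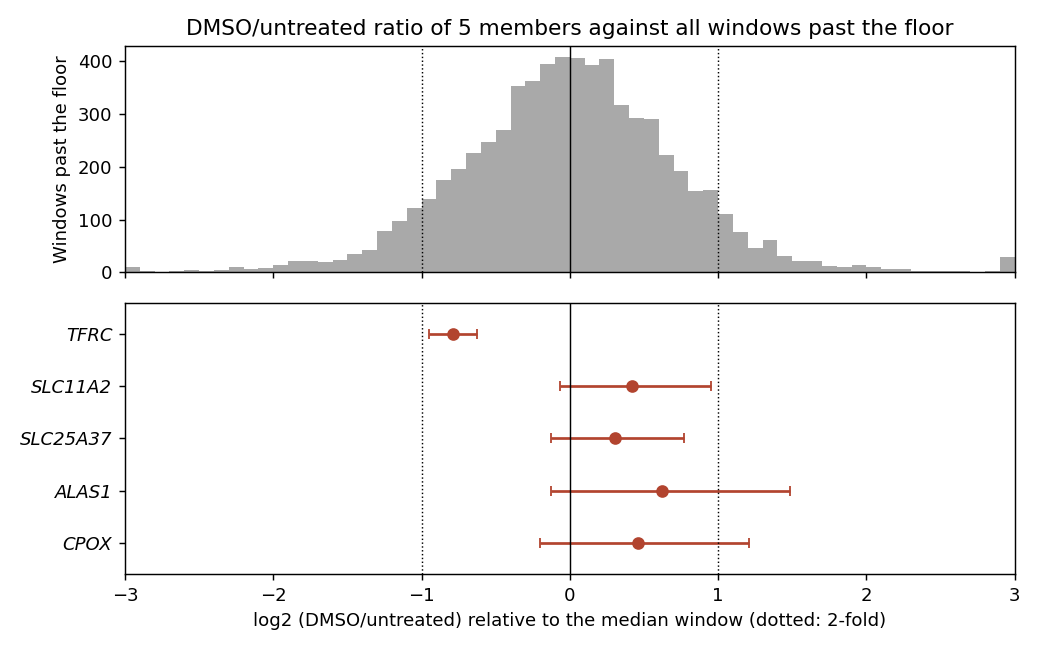
Top, number of windows past the floor by log2 DMSO/untreated ratio relative to the median window, with 8 windows below -3 and 27 above 3 put in the end bins. Bottom, the 5 genes past the floor with exact 95% intervals; dotted lines mark 2-fold. TFRC at -0.79 lies in the lower flank of the distribution and the other 4 between 0.31 and 0.62.

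Genes below the floor had wide intervals. ALAS2 stood at -1.09 (-2.62 to 0.56), FECH at -0.33 (-1.98 to 1.72) and UROS at -0.42 (-2.82 to 2.87), none of which separates them from the median window or from a 2-fold difference. The value of the UROD row, -2.44 (-6.40 to 0.30), rests on 5 reads inside HECTD3.

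By the reads in both libraries, the window most like TFRC was that of the decoy receptor gene TNFRSF6B, with 1129 DMSO and 440 untreated reads. Likeness was the distance in log2 scaled reads over the 2 libraries, among windows past the floor. The same numbers of reads as at SLC11A2 were found at the heat shock gene DNAJB1 (247 and 39), as at SLC25A37 at the centriole kinase gene PLK4 (292 and 50), and as at CPOX at SMIM11B (137 and 21). Nearest to ALAS1 was IQGAP2 with 116 and 16 reads. With 2 libraries many windows coincide by their counts.

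Other enzymes of heme synthesis were read as well. ALAD, which acts right after the first step, held 90 DMSO and 10 untreated reads. PPOX, which acts right before FECH, held 371 DMSO and 91 untreated reads in a window that overlaps USP21. In CPM per kb PPOX reached 14.9 with DMSO and 7.10 untreated, above the 5.50 and 1.64 of CPOX, whereas ALAD stood at 3.61 and 0.780. On the log2 scale and against the median window, ALAD stood at 0.92 (-0.01 to 2.04) and PPOX at -0.21 (-0.54 to 0.14). Among ALAS1, ALAS2, ALAD, CPOX and PPOX, the window of ALAS2 had the lowest level in both libraries.

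In all, 52 windows of other iron and heme genes were examined in 4 lists. Of these, 24 passed the floor, with a median ratio of -0.06; 2 of the 24 (8.33%) were at least 2-fold higher and 1 (4.17%) at least 2-fold lower. These shares are near the 7.04% and 7.97% of all windows. A further 15 windows had under 1 kb of counted bases and none of them passed, among them that of SLC25A28.

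In the list of iron uptake and its regulation, 9 of 15 passed, 1 higher and 1 lower. STEAP3, the endosomal reductase that prepares iron for SLC11A2, was the highest, with 242 DMSO and 20 untreated reads and a ratio of 1.35 (0.70 to 2.10). HFE, which binds the transferrin receptor, was the lowest, with 72 and 37 reads and -1.27 (-1.87 to -0.66). PCBP2, an iron chaperone, was the most read of the list with 673 and 147 reads and stood at -0.04.

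Of the 18 windows for mitochondrial iron, heme transport and iron-sulfur assembly, 6 passed and 1 was 2-fold higher. This was ABCB10, a mitochondrial transporter known to stabilise mitoferrin-1, with 457 DMSO and 46 untreated reads and a ratio of 1.07 (0.64 to 1.54). TMEM14C was lowest, with 177 and 46 reads at -0.29 (-0.77 to 0.21), and ABCB6, most read by mean CPM, held 417 and 93 reads and stood at -0.07. Of the 16 windows for storage, export and breakdown, 6 passed, and these 6 lay within 2-fold, as 85% of all windows past the floor did. Below the floor HEPH, a copper enzyme that oxidises exported iron, held 39 DMSO and 24 untreated reads and stood at -1.52 (-2.31 to -0.74). The ferritin heavy chain gene FTH1 was the most read, with 1934 DMSO and 377 untreated reads and a ratio of 0.12 (-0.04 to 0.28). FTH1 has near-identical processed copies and its count is uncertain. The iron exporter SLC40A1 was highest at 0.25 and HMOX2, the constitutive heme oxygenase, lowest at -0.31.

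Other erythroid genes gave the setting. Globins had a median of -0.40 over 5 windows past the floor, with HBG1 lowest at -1.15 and HBQ1, the most read, highest at 0.31; the near-identical copies among them make single values uncertain. Erythroid transcription factors had -0.37 over 8 windows, with MYB lowest at -0.59, KLF1, the most read, at -0.45 and ZFPM1, the partner of GATA1, highest at 1.40. Red cell membrane genes had 0.13 over 8, with GYPC at -1.06, TMOD1 at 1.02 and ADD1, the most read, at 0.20. The heme and iron genes were not tested against these lists.

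**Figure D5:**
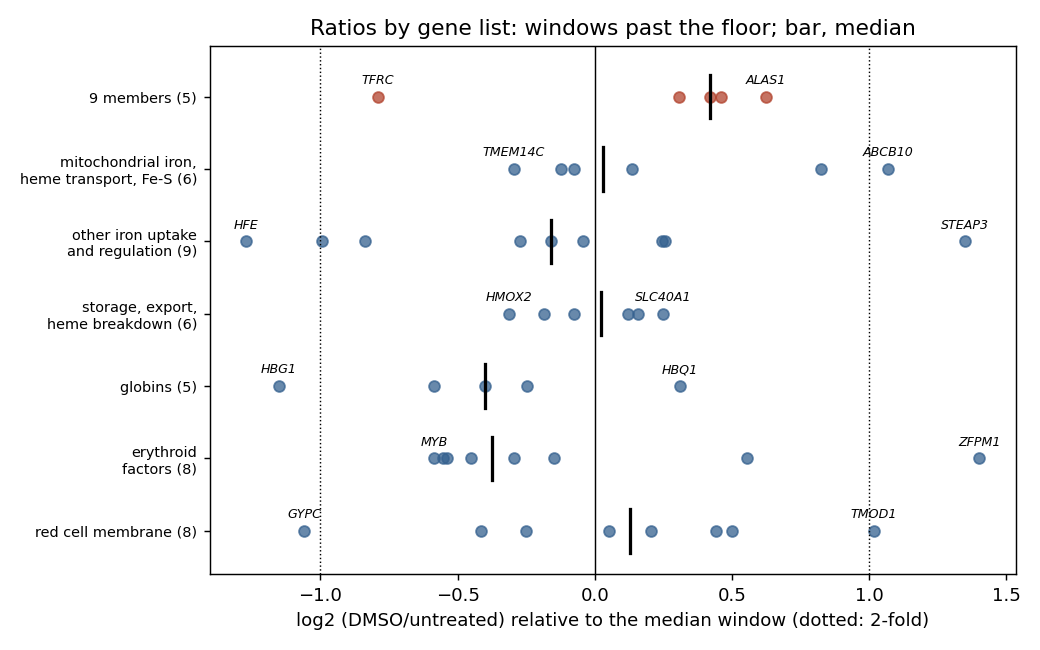
log2 DMSO/untreated ratio relative to the median window for the 9 genes and the members of 6 further lists that passed the floor (number in brackets); bars, list medians; dotted lines, 2-fold; the lowest and the highest of each are named. TFRC at -0.79 is apart from the other 4 of the 9 genes, and STEAP3 at 1.35 and HFE at -1.27 span the list of iron uptake and regulation.

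Among markers of other cell types, the neural and the granulocyte and monocyte ones held larger shares of the reads with DMSO. The lymphoid and megakaryocyte ones did not. Over 21 neural windows there were 1341 DMSO and 49 untreated reads, or 0.0596% and 0.00933% of the reads outside ribosomal and mitochondrial windows. Of the 21 windows 3 were at 0 with DMSO and 18 at 0 untreated. GFAP had 514 and 0 reads and MT3 188 and 0, while MOG was at 0 in both, as were NEFM, which has no counted base, and GAD1, which has 458. SLC17A7, with 249 DMSO reads, had 47 of the 49 untreated reads. Granulocyte and monocyte windows held 87 DMSO and 4 untreated reads over 7 windows, lymphoid windows 253 and 69 over 6 and megakaryocyte windows 335 and 110 over 8, with PF4 and PPBP at 0 in both. As shares of the reads outside ribosomal and mitochondrial windows, these were 0.00387% with DMSO and 0.000761% untreated, 0.0112% and 0.0131%, and 0.0149% and 0.0209%. The TF row, named for the gene of transferrin but with no RefSeq start of it in the window, held 58 DMSO and 0 untreated reads. With 3 reads in place of 0 this is 4.10-fold higher relative to the median window. The exact interval of its log2 ratio starts at 1.69. The part of these differences in the ratios of the iron and heme genes was not tested.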

How the data were processed

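The authors deposited 1 table of read counts over 6000-base windows around gene starts on hg38, made with Bowtie2 2.3.5 and featureCounts 2.0.1 per the submitters' processing notes, which do not give settings here. The TPM values that the authors deposited beside them equalled CPM in all 36814 windows (tolerance 1e-06), so CPM were computed from the counts, and neither the TPM nor their mean was used further.

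The unshared bases of each window were computed from the table's coordinates. Counts were scaled with TMM factors (edgeR 4.0.16, R 4.3.3), log2 ratios used a prior count of 0.5 reads, and ratios were centred on the median window past the floor, which stood at 0.31 on the TMM scale and at 1.27 with library totals. Intervals are exact Poisson (counts) or Clopper-Pearson (ratios and shares of 2 counts). With 1 library for each treatment there was no test. Gene starts and sequences came from RefSeq GRCh38.p14; exons were not used here. All of the 9 genes were named, and of each further list the member of highest mean CPM and those of highest and lowest ratio. The window nearest to each of the 5 genes past the floor was named as well. TF, SLC25A28, HEPH, HBB and the markers were named after their values were seen. The genes and lists were chosen with earlier results of these data known. The ratio procedure was tested on simulated data, in which both libraries came from a shared profile of reads apart from the windows set to differ. That simulation did not test the scaling at ribosomal shares as unequal as those of these libraries. Alternatives covered scaling (library totals, DESeq2 1.42.0, upper quartile), centring, floor, prior count, overlap, thinning, fold threshold and, added after seeing the data, subtraction of the trend with read count.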

Additional observations from a re-analysis of the deposited data

How the results depend on the processing

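No paired analysis was possible because DMSO and untreated cells were read in a single library each, and no replicate could be left out. Over the other settings that centre the ratios, TFRC stayed below the median window, between -1.18, when any read sufficed for the floor, and -0.68; without centring its ratio was -0.48, where the median window stands at 0.31. ALAS1, CPOX and SLC11A2 stayed above the median window, from 0.23, 0.07 and 0.03 upward, and SLC25A37 ranged from -0.09 with any read to 0.42. The median of the 5 genes (0.42) was 0.73 without centring. It changed sign in other sets of genes, to -0.91 at a floor of 20 CPM and 400 reads, which 1 gene passes, to -0.72 with any read, which all 9 pass, and to -0.32 after thinning of the DMSO reads to the untreated number, ribosomal and mitochondrial ones left aside, where 2 genes pass. With any read 3 of the 9 genes were at least 2-fold lower, where 25.2% of all windows were. At 1.5-fold 1 of 5 was higher and 1 lower, where 18.6% and 19.6% of all windows were. The counts of other iron and heme genes past 2-fold, 2 higher and 1 lower of 24, became 4 and 0 of 24 without centring (all windows, 15% higher and 3.37% lower), and 5 and 2 of 32 at 1 CPM and 20 reads (12.7% and 12.2%). They became 0 and 0 of 11 at 20 CPM and 400 reads (4.05% and 6.21%), 0 and 0 of 15 after thinning (4.38% and 8.13%), and 5 and 11 of 45 with any read (27.7% and 25.2%). At 1.5-fold they were 4 and 3 of 24, and windows without overlap gave 2 lower of 20 (8.04%). Floors and thinning change which windows are counted; no other cause was tested. Of the levels recomputed with another total or length, 21 left their intervals and 15 did not. ALAS2 has 13 DMSO and 6 untreated reads over a whole window, so depth limits its ratio; UROS and FECH lost counted bases as well, and the UROD row would not measure UROD at any depth.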
